A study of Mus musculus with 14 samples.

Results

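The 10 heat-shock chaperones described here are Hspa1a, Hspa1b, Hspa8, Hsp90aa1, Hsp90ab1, Dnajb1, Hsph1, Hspe1, Hspd1 and Hspb1, chosen by gene symbol as cytosolic and mitochondrial heat-shock chaperones. All 10 were among the 23420 symbols of the expected-count table, and all 10 passed the filter on low counts that left 14217 genes for testing. They were measured in polyadenylated RNA of endogenous mouse dendritic cells (DCs) with the Smart-seq2 protocol. Popliteal lymph nodes gave 14 libraries, each of 150 sorted cells. Contact was marked by LIPSTIC: sortase A carried by a T cell's CD40L attaches biotin-LPETG to a pentaglycine tag (G5) on the CD40 of a DC it touches.

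In the biotin-positive group (6 libraries) and the biotin-negative group (6 libraries), Cd40G5/G5 recipients on C57BL/6 received Cd40G5/G5 DCs pulsed with an ovalbumin peptide. CD4+ OT-II T cells, of genotype CD40lgSrtA/Y with CD4-Cre, followed 18 hours later. Biotin-LPETG (300 nmol per footpad) was given 46 hours after the T cells, and nodes were taken at 48 hours. The Cd40-null group (2 libraries) came from Cd40-/- mice on C57BL/6, treated alike except that the transferred DCs and OT-II T cells were wild-type, so host genotype and transferred cells differ together. In all groups the sorted cells were high in MHC class II, positive for CD11c and CD11b and negative for XCR1. Biotin-sorted libraries are fractions of the node's DCs, whereas the null DCs were not divided by the label. CD4-Cre acts in T cells and not in the DCs that were sequenced, and the labels give neither the age of the mice nor whether libraries came from separate animals, so p-values reflect the scatter among libraries, which may be technical.

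Total counts ran from 14518099 to 33260704 per library. Cd40 was at 852 to 1309 CPM (a counts-per-million value, relative to the TMM-scaled library size) in biotin-positive, 386 to 598 CPM in biotin-negative and 74.2 and 53.3 CPM in Cd40-null libraries, so no null library reached the biotin-sorted ones. All 12 of 12 DC markers had counts in every group, with summed levels of 17120 to 21416 CPM in biotin-positive, 14155 to 17078 CPM in biotin-negative and 11081 to 13421 CPM in null libraries. More genes were detected in biotin-negative libraries (14225 to 15742) than in biotin-positive (13090 to 13455) or null libraries (13113 to 13596). Summed levels of 23 monocyte and macrophage markers were 122 to 287 CPM in biotin-positive, 319 to 1601 CPM in biotin-negative and 377 to 574 CPM in null libraries.

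Heat-shock proteins bind unfolded or partly folded proteins and help them fold, assemble or be degraded. HSP70 chaperones (Hspa8, Hspa1a, Hspa1b) hold short hydrophobic stretches in a cycle driven by ATP, which J-domain proteins such as Dnajb1 start and nucleotide exchange factors such as Hsph1 reset. HSP90 chaperones (Hsp90aa1, Hsp90ab1) act later on kinases and receptors, and Hspd1 and Hspe1 form the folding chamber of mitochondria. Some of these genes are made at all times, while others are switched on by heat-shock factor 1 (HSF1), which binds inverted repeats of GAA and TTC.

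The promoters of 4 of these genes are described first, and any link between their layout and the values was not tested. Hspa1a (chromosome 17, 34969190 to 34972156, 1 exon) and Hspa1b (chromosome 17, 34956436 to 34959238, 1 exon) lie on the minus strand of mm10 with 9951 bases between them. Their sequences before the start sites (RefSeq, GRCm38.p6, chr17:34972157-34972406 and chr17:34959239-34959488, minus strand) differed at 3 of 250 positions. Hspe1 (chromosome 1, 55088132 to 55091307, plus strand) and Hspd1 (chromosome 1, 55077835 to 55088243, minus strand) are divergent neighbours whose annotated ends overlap. The window of Hspe1 is chr1:55087898-55088147, plus strand. Capitals mark matches to GAANNTTC or TTCNNGAA, which each read the same on both strands and may overlap each other.
Hspa1a: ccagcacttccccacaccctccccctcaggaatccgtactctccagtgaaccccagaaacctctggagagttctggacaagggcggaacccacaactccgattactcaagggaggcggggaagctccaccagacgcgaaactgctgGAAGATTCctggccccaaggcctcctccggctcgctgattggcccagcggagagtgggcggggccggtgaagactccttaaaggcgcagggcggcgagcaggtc
Hspa1b: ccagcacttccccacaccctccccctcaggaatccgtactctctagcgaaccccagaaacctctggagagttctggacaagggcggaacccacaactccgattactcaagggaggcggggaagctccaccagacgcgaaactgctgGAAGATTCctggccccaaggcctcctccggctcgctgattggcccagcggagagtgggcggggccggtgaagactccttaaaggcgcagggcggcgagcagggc
Hspe1: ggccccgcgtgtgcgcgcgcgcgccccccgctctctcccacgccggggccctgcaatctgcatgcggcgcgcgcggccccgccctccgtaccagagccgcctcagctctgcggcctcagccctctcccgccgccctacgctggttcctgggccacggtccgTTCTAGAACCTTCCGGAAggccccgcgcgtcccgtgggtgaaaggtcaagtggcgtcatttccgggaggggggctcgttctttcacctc
The run in capitals in the Hspe1 window (chromosome 1, 55088059 to 55088076, 18 bases) starts 89 bases before the RefSeq start of Hspe1. On the other strand the same bases stand 144 bases before the second of the 2 listed RefSeq starts of Hspd1. The Hspe1 window ends at 55088147, inside the gene span given above from 55088132, which comes from another annotation (GENCODE M21). The run holds 3 overlapping matches and both orders of a 3-part motif, in which GAA and TTC alternate with 2 free bases between units. In Hspa1a and Hspa1b a single match stands 104 bases before the start. Of 32851 promoter windows of this length, 12.8% held either 2-part motif and 0.466% either 3-part motif. Promoters were listed for 7 of the 10 genes, and 6 of these 7 held a 2-part match in at least 1 listed window, Dnajb1 not. This counts genes, some with 2 windows, whereas the 12.8% counts single windows, so the shares are not like for like. Nor are the 6 separate, since Hspd1 and Hspe1 share 1 run and the Hspa1a and Hspa1b windows are near-identical.

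Short reads bear on the values of these families. Of the 38-base windows of the longest coding transcript (GENCODE M21), 61.8% of those of Hspa1a also occur in Hspa1b, and 65.5% of those of Hspa1b occur in Hspa1a. For Hspa8, 77.7% of windows occur in transcripts of other annotated genes, mostly in 1 of them, Gm15459. The shares were 61.1% for Hsp90aa1, 53.2% for Hspe1, 50.8% for Hspd1 and 55.8% for Hspb1, but 9.38% for Hsp90ab1, 0.879% for Dnajb1 and 0 for Hsph1. Values of Hspa1a and Hspa1b as single genes are therefore uncertain, and how the deposited counts divided reads shared with other copies is not given in the sources used here.

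The chaperones differed widely in level. Per kilobase of transcript, Hspa8 stood first in all 3 groups, at 769.6 ± 40.4 CPM per kb in biotin-positive (SD, n = 6), 998 ± 40.9 in biotin-negative (SD, n = 6) and 1163 ± 121 in Cd40-null libraries (SD, n = 2). Hsp90ab1 came next in each group, at 471 ± 38.1, 373 ± 21.3 and 482 ± 51.0 CPM per kb. Hspa1a was in the next place in both biotin-sorted groups (93.9 ± 69.1 and 78.2 ± 63.4 CPM per kb) and in place 8 in null libraries (4.78 ± 2.37 CPM per kb). In biotin-positive libraries Hspa1a (39.0 to 226 CPM per kb), Hsp90aa1 (32.3 to 61.7) and Hspe1 (31.1 to 54.4) overlapped, so their order is within their spread. Hspd1 followed at 29.3 ± 3.98 CPM per kb, then Dnajb1 at 14.9 ± 3.27 and Hsph1 at 6.80 ± 4.45. Hspb1 (3.71 ± 2.71) and Hspa1b (2.44 ± 1.12) came last and overlapped. The pair Hspa8 and Hsp90ab1 made up 74.5% to 90.5% of the CPM of the 10 genes in single libraries.

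**Figure D1:**
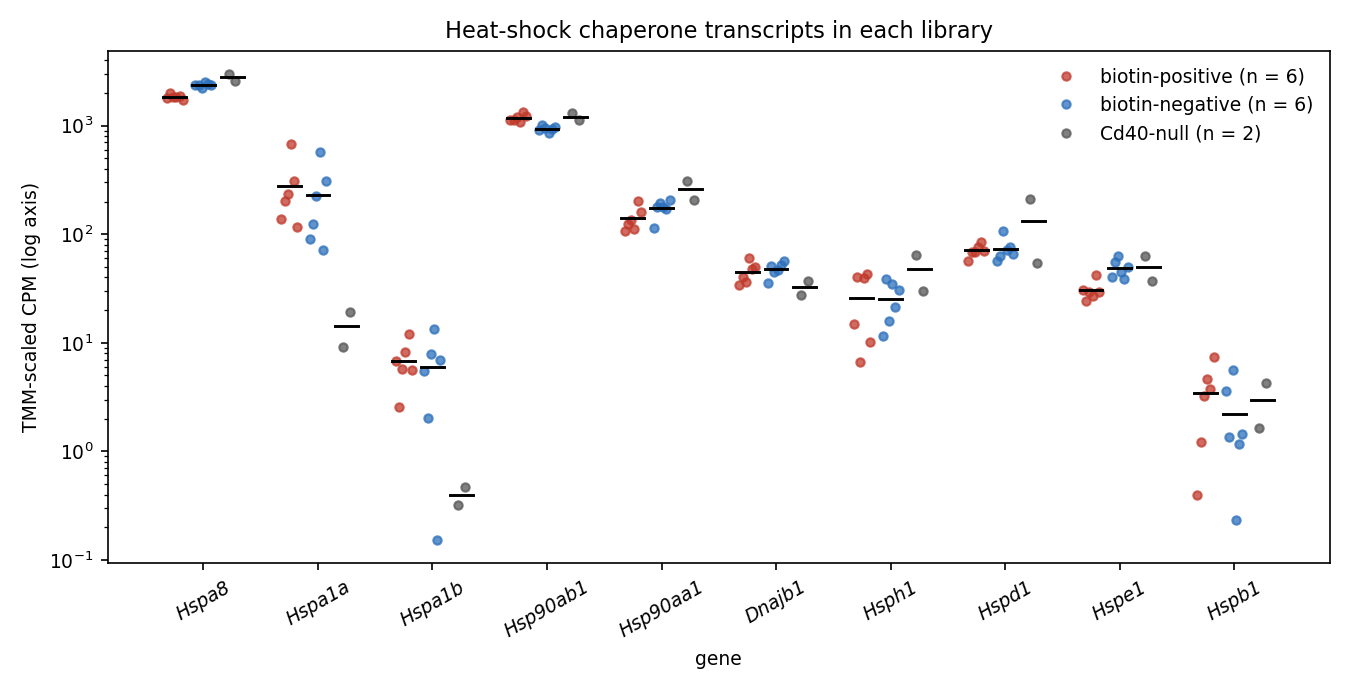
Each point is 1 library, with TMM-scaled CPM on a log axis for the 10 chaperones in biotin-positive (red), biotin-negative (blue) and Cd40-null (grey) libraries, and bars mark group means. Hspa8 and Hsp90ab1 points lie close together in each group, whereas those of Hspa1a, Hspa1b, Hsph1 and Hspb1 are spread widely.

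The genes also differed in how steady they were. Across all 14 libraries the highest level of Hspa8 was 1.74 times the lowest, and that of Hsp90ab1 1.57 times. For Hspa1a the highest was 72.9 times the lowest, for Hspa1b 87.6 times (lowest library at 3 counts), for Hsph1 9.72 times and for Hspb1 31.9 times. These ratios also carry differences between groups. Within groups the ratio for Hspa1a was 5.81 in biotin-positive, 7.95 in biotin-negative and 2.08 in null libraries. The biological coefficient of variation is edgeR's estimate of relative spread within groups, drawn towards that of genes at a similar level. It was 0.115 for Hspa8, and 0% of the 14217 tested genes had a lower one. It was 0.123 for Hsp90ab1, with 0.134% of tested genes lower, 0.608 for Hspa1a and 0.902 for Hspb1. The plain SD over mean of Hspa8 was 5.26% in biotin-positive, 4.10% in biotin-negative and 10.4% in null libraries. Of the tested genes, 99.8% had a lower mean level than Hspa8, 99.5% than Hsp90ab1, 95.6% than Hspa1a and 27.6% than Hspb1. The part of level in this order was not tested.

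The first question was whether labelled DCs and unlabelled DCs express these genes at different levels. Hspa8, the constitutive HSP70, and Hspe1, the mitochondrial co-chaperonin, were lower in biotin-positive DCs, and Hsp90ab1, the constitutive HSP90, was higher. Of the 10 chaperones, 1 rose and 2 fell by edgeR's quasi-likelihood test at a Benjamini-Hochberg false discovery rate of 0.05, where 7.75% of all tested genes were called (3.7% higher and 4.05% lower). Their median log2 difference was -0.01, beside -0.03 over all tested genes. Such bulk values cannot tell fewer cells of a type from less RNA per cell.

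Hspa8 (chromosome 9, 40800984 to 40810087) ran from 1719.6 to 2003 CPM in biotin-positive libraries, with a median of 1829. In biotin-negative libraries it ran from 2236 to 2538 CPM, with a median of 2381. Every biotin-positive library was below every biotin-negative one; 5.02% of all tested genes separated the groups, 2.6% with biotin-positive higher and 2.41% lower. Means were 1842 ± 96.8 and 2388 ± 98.0 CPM (SD, n = 6 each), 1.30-fold lower (log2 -0.37, SE 0.06, adjusted p = 0.00113 in edgeR). Hspa8 also uncoats clathrin-coated vesicles and feeds proteins to lysosomes in chaperone-mediated autophagy.

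Hsp90ab1 (chromosome 17, 45567775 to 45573271) ran from 1090.3 to 1350.3 CPM in biotin-positive libraries, with a median of 1168. In biotin-negative libraries it ran from 858 to 1015 CPM, with a median of 941. The groups again did not overlap, in the opposite direction from Hspa8. The mean rose from 939.5 ± 53.7 to 1188 ± 96.1 CPM (SD, n = 6 in both), by 1.26-fold (log2 0.34, SE 0.07, adjusted p = 0.00790 in edgeR).

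The stress-inducible paralog Hsp90aa1 (chromosome 12, 110690605 to 110702728) did not follow. It ran from 106 to 202 CPM in biotin-positive (median 130) and from 114 to 208 CPM in biotin-negative libraries (median 178), and the groups overlapped (log2 -0.31, SE 0.17, adjusted p = 0.341 in edgeR). Per kilobase, Hsp90ab1 stood 8.69 to 13.8 times above Hsp90aa1 in biotin-positive libraries, 6.07 to 10.5 times in biotin-negative and 5.46 and 7.13 times in null libraries. This ratio was chosen after its values were seen and was not tested.

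Hspe1 ran from 24.1 to 42.1 CPM in biotin-positive libraries (median 29.2) and from 39.0 to 62.8 CPM in biotin-negative libraries (median 47.1). The groups overlapped through biotin-positive replicate 5, the highest of its group. Hspe1 was 1.60-fold lower in biotin-positive DCs (log2 -0.68, SE 0.18, adjusted p = 0.0306 in edgeR). Leaving out any of 8 of the 12 libraries ended this call, at adjusted p values up to 0.0762.

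Hspd1, which encodes the chaperonin that Hspe1 caps and starts beside it on the other strand, showed no such difference. It ran from 56.6 to 85.4 CPM in biotin-positive (median 69.3) and from 56.7 to 108 CPM in biotin-negative libraries (median 68.1), at log2 -0.05 (SE 0.24, adjusted p = 0.952 in edgeR). Per kilobase the Hspe1 to Hspd1 ratio was 1.09 to 1.69 with biotin and 1.59 to 2.80 without, again with no test since it was chosen after its values were seen. In null libraries it was 0.938 and 2.16.

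**Figure D2:**
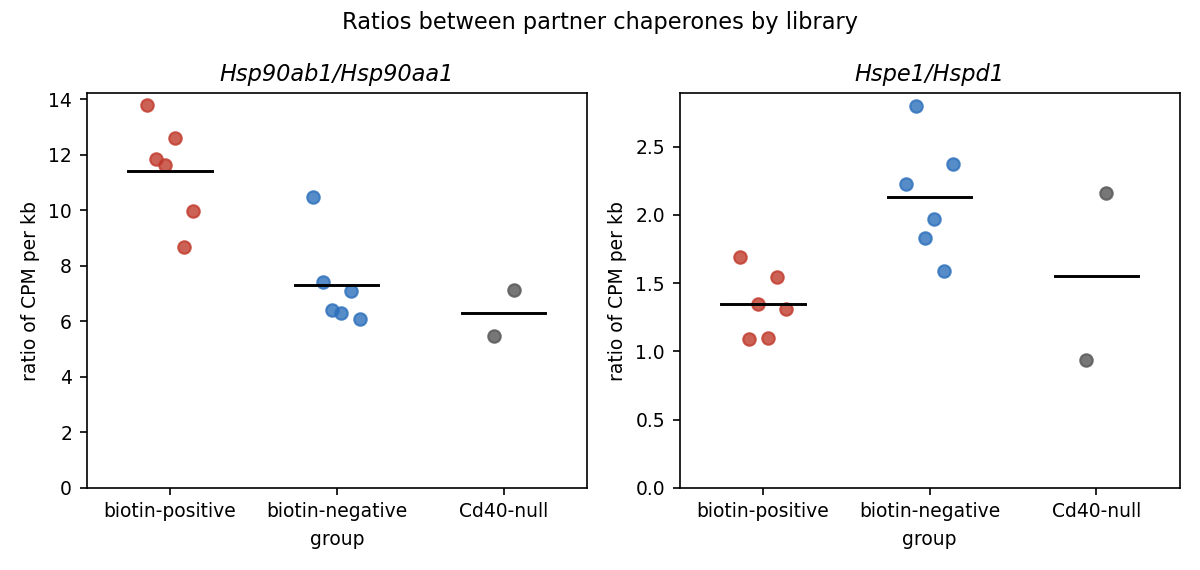
Points are ratios of CPM per kb in single libraries for Hsp90ab1 over Hsp90aa1 (left) and Hspe1 over Hspd1 (right), by group, with bars at group means. The first ratio averages 11.4 with biotin and 7.29 without, the second 1.35 and 2.13.

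Hspa1a, Hspa1b, Hsph1, Dnajb1 and Hspb1 did not pass the test between the biotin groups. Hspa1a ran from 116 to 672 CPM in biotin-positive (median 219) and from 71.6 to 569 CPM in biotin-negative libraries (median 176), at log2 0.26 (SE 0.52, adjusted p = 0.858 in edgeR). In both groups the highest library was replicate 4. Hsph1, the HSP110 exchange factor, ran from 6.64 to 43.0 and from 11.6 to 38.8 CPM (log2 0.02, SE 0.44). Dnajb1, the J-domain partner of inducible HSP70 (chromosome 8, 83608193 to 83612653), ran from 34.1 to 60.0 and from 35.4 to 56.7 CPM (log2 -0.09, SE 0.17). The small heat-shock protein gene Hspb1 stood at 0.396 to 7.43 and 0.232 to 5.57 CPM (log2 0.63, SE 0.78). With standard errors of 0.44 to 0.78 on the log2 scale for Hspa1a, Hspa1b, Hsph1 and Hspb1, differences of the size seen for Hspa8 could not have been resolved in them.

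The number of detected genes and the summed monocyte and macrophage markers and DC markers, given above, also separated the biotin groups without overlap. So did 4 further marker sums. Langerhans cell markers (3 genes) summed to 215 to 293 CPM in biotin-positive against 30.6 to 105 CPM in biotin-negative libraries, and conventional type 1 DC markers (7 genes) to 322 to 561 against 134 to 274 CPM. NK cell markers (10 genes) summed to 1052 to 1689 against 1868 to 3625 CPM, though only 5 of the 10 passed the filter on low counts. Of the 10, 2 had no counts in any biotin-positive and 1 in any biotin-negative library, so this sum rests on part of its list. Plasmacytoid DC markers (6 genes) summed to 81.9 to 198 against 230.0 to 532 CPM. The part of these 4 sums, of the DC markers and of the Rn45s share in the differences was not tested. With detected genes as a covariate the differences of Hspa8, Hsp90ab1 and Hspe1 were log2 -0.29, 0.35 and -0.85, with adjusted p of 0.478, 0.482 and 0.466. With the mean level of the monocyte and macrophage markers as a covariate they were log2 -0.40, 0.43 and -0.31, with adjusted p of 0.230, 0.287 and 0.893. The calls of these genes were lost in both fits, and over all genes 11 and 109 calls were left of 1102. Both covariates separated the biotin groups without overlap, so these fits cannot tell the label apart from either covariate.

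**Figure D3:**
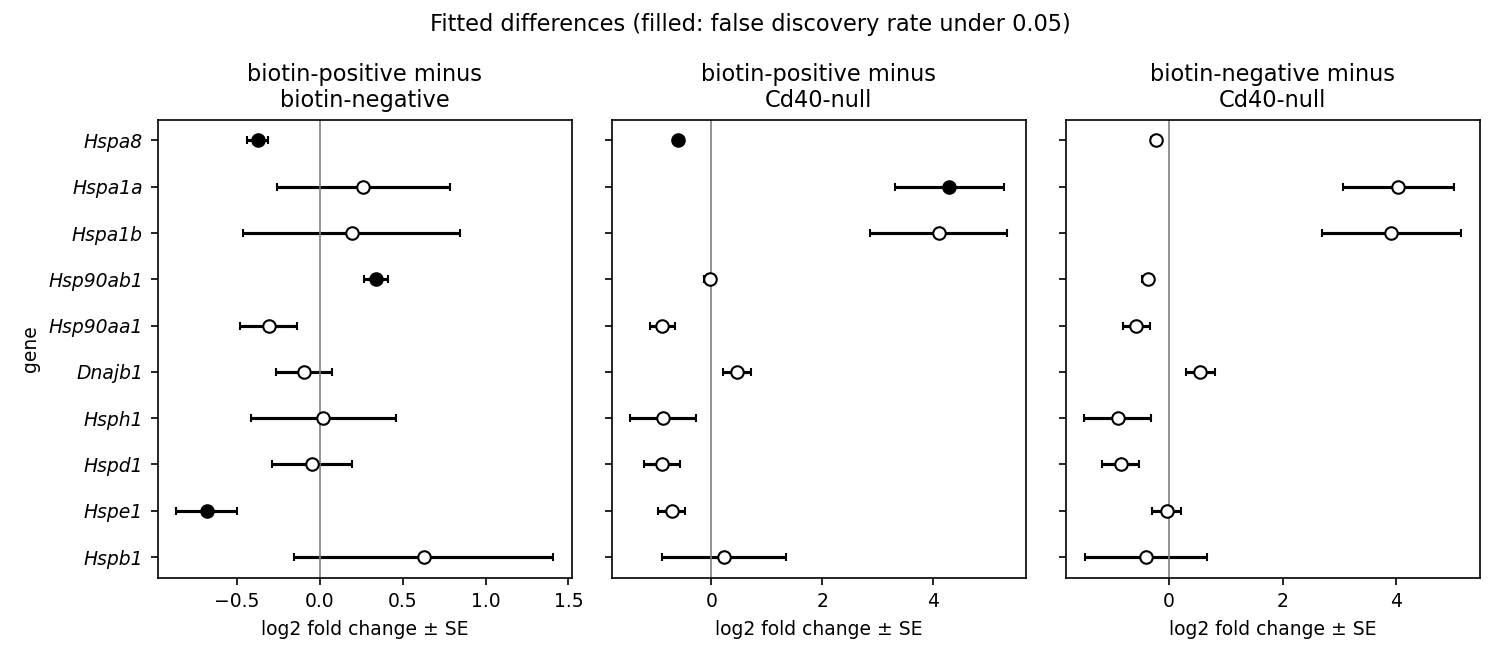
Points are log2 fold changes of the 10 chaperones with standard errors as bars in the 3 comparisons, filled where the edgeR false discovery rate is under 0.05. Hspa8 is lower and Hsp90ab1 higher in biotin-positive than biotin-negative DCs, and Hspa1a and Hspa1b lie near log2 4 over Cd40-null DCs.

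The comparisons with Cd40-null DCs set both biotin-sorted groups against cells that lack the receptor. Here the inducible HSP70 genes stood out. Hspa1a was at 9.21 and 19.2 CPM in the null libraries (229 and 371 counts), under every biotin-sorted library. The lowest biotin-sorted library, at 71.6 CPM, was 3.74 times the higher null one. Hspa1a was 19.7-fold higher in biotin-positive than null DCs (log2 4.30, SE 0.98, adjusted p = 0.0353 in edgeR). It was 16.4-fold higher in biotin-negative than null DCs, which did not pass the test (log2 4.04, SE 0.97, adjusted p = 0.123 in edgeR).

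Hspa1b was at 0.322 and 0.465 CPM in the null libraries, 2.57 to 12.0 CPM in biotin-positive (median 6.28) and 0.153 to 13.4 CPM in biotin-negative libraries (median 6.23). Biotin-negative replicate 5, at 0.153 CPM (3 counts), was below both null libraries (8 and 9 counts), so that only biotin-positive libraries were all above the null ones. The order of libraries at such low counts is uncertain, so this does not set the 2 biotin groups apart. Log2 differences were 4.10 (SE 1.23, adjusted p = 0.103 in edgeR) and 3.91 (SE 1.22, adjusted p = 0.284). Hspa1b took 0.214% to 5.70% of the counts of both genes in single libraries, although most of their 38-base windows are shared. With both genes summed, the level was 285 ± 206 CPM in biotin-positive (SD, n = 6), 238 ± 192 in biotin-negative (SD, n = 6) and 14.6 ± 7.13 in null libraries (SD, n = 2). The summed difference was log2 4.29 (SE 0.98, adjusted p = 0.0336 in edgeR) for biotin-positive and 4.03 (SE 0.96, adjusted p = 0.120) for biotin-negative over null DCs.

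**Figure D4:**
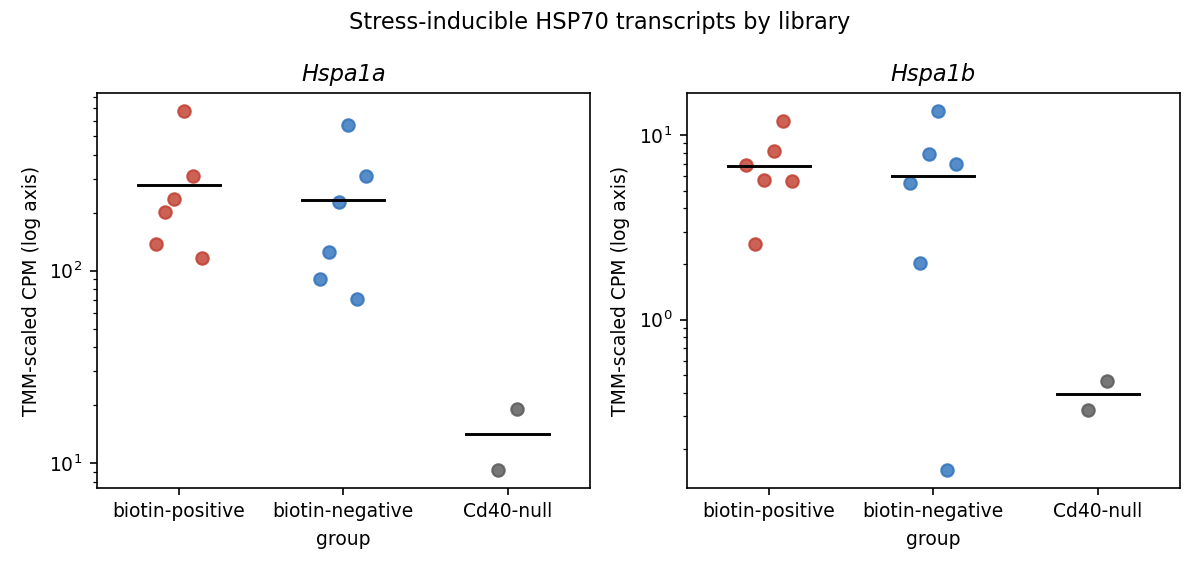
Points are TMM-scaled CPM on log axes of Hspa1a (left) and Hspa1b (right) in single libraries by group, with bars at group means. Both null libraries are under all biotin-sorted libraries for Hspa1a, and 1 biotin-negative library, at 3 counts, is under them for Hspa1b.

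Calls for Hspa1a rested on few libraries. Without null replicate 1 the biotin-positive difference was log2 3.86 (adjusted p = 0.395 in edgeR), without null replicate 2 it was 4.91 (adjusted p = 0.174), and without biotin-positive replicate 3 it was 4.34 (adjusted p = 0.0516). Without biotin-negative replicate 5 the biotin-negative difference passed, at log2 4.22 (adjusted p = 0.0490). DESeq2 called Hspa1a and Hspa1b higher over null DCs in both comparisons. The direction of Hspa1a and Hspa1b over null DCs was the same in every fit run. The mean log2 CPM of 19 tested immediate early and handling-associated genes was 4.12 and 3.98 in null libraries. It was 2.51 to 4.87 in biotin-positive (median 2.93) and 3.64 to 4.85 in biotin-negative libraries (median 4.09). Both null means lay inside these ranges, but in the biotin-positive range only through replicate 5, at 4.87. The next highest biotin-positive library, replicate 1, was at 3.65, under both null libraries. With the mean of these immediate early genes as a covariate the Hspa1a difference between biotin-positive and null DCs was log2 4.32 (adjusted p = 0.0596 in edgeR). The call was also lost with no filter on low counts (log2 4.28, adjusted p = 0.0986 in edgeR) and by limma voom (log2 4.17, adjusted p = 0.117). Genotype, transferred cells and any difference in handling between the groups cannot be told apart for these genes.

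Hspa8 went the other way, at 2989 and 2579 CPM in null libraries, above every biotin-sorted library. It was 1.51-fold lower in biotin-positive than null DCs (log2 -0.60, SE 0.09, adjusted p = 0.00130 in edgeR); without null replicate 1 the adjusted p was 0.0729. Between biotin-negative and null DCs it was at log2 -0.22 (SE 0.09, adjusted p = 0.444). Hsp90ab1 was at 1305 and 1123 CPM in null libraries, within the range of biotin-positive ones (log2 -0.03, SE 0.10) and above all biotin-negative ones (log2 -0.37, SE 0.10, adjusted p = 0.190).

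Hsp90aa1 was at 311 and 205 CPM in null libraries, above all biotin-positive libraries (log2 -0.88, SE 0.23, adjusted p = 0.0589 in edgeR) and overlapping biotin-negative ones (log2 -0.57, SE 0.24). Limma voom called Hsp90aa1 lower in biotin-positive than null DCs (adjusted p = 0.0173), as did DESeq2 (adjusted p = 0.0183). Hspd1 was at 209 CPM in null replicate 1 but 54.0 CPM in null replicate 2, under every biotin-sorted library, so its null mean of 131 CPM describes neither. Hspe1 was at 62.6 and 37.2 CPM, and Hsph1 at 64.5 and 30.2 CPM, with replicate 1 the higher for both as well. Dnajb1 was at 27.6 CPM in null replicate 1, under every biotin-sorted library, and at 37.4 CPM in null replicate 2, inside their range. Its differences were log2 0.46 (SE 0.25) for biotin-positive and 0.56 (SE 0.25) for biotin-negative over null DCs. Hspb1 was at 1.65 and 4.23 CPM, inside its range in the biotin-sorted libraries.

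Between biotin-positive and null DCs, 1 of the 10 chaperones rose and 1 fell, where 2.27% of all tested genes were called (1.22% higher and 1.05% lower). Groups did not overlap for 15.9% of tested genes (7.81% higher and 8.07% lower), and 4 chaperones separated them (Hspa1a, Hspa1b, Hspa8 and Hsp90aa1). Between biotin-negative and null DCs edgeR called 0 of 10, where 0.317% of genes were called (0.274% higher and 0.0422% lower). An unadjusted p under 0.05 in edgeR was found for 3 chaperones by label and 6 between biotin-positive and null DCs, beside 21.1% and 13.8% of tested genes. Between biotin-negative and null DCs it was found for 7 chaperones, beside 9.22% of tested genes. Of these 7, Hspd1 ran from log2 -1.52 to 0.44 as single libraries were left out. DESeq2 called 3 chaperones in this comparison. Groups did not overlap for 3 (Hspa1a, Hspa8 and Hsp90ab1), against 10.7% of tested genes (6.23% higher and 4.47% lower). Median log2 differences of the 10 genes were -0.31 and -0.30, beside 0.04 and 0.06 over all tested genes. These comparisons share the null libraries, and the first shares its biotin-positive libraries with the comparison by label.

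Genes that work with these chaperones were read from 8 lists with 89 tested members in all. Between biotin-positive and biotin-negative DCs 4 of the 89 rose and 2 fell, or 6.74%, near the 7.75% over all tested genes. Of 18 HSP90 co-chaperones 2 rose and 0 fell. Cdc37, which brings kinases to HSP90, was at 363 to 463 CPM in biotin-positive and 277 to 346 CPM in biotin-negative libraries, with no overlap (log2 0.50, SE 0.09, adjusted p = 0.00127 in edgeR). Tomm34 stood at 160 ± 22.2 and 124 ± 12.0 CPM (SD, n = 6 each; log2 0.37, SE 0.11, adjusted p = 0.0385 in edgeR). In null libraries Cdc37 was at 351 and 409 CPM and Tomm34 at 179 and 189 CPM, and neither was called against null DCs.

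Of 15 tested J-domain genes 0 rose and 1 fell. This was Dnaja1, a partner of Hspa8 in the cytosol, at 78.6 ± 10.7 against 112 ± 16.4 CPM (SD, n = 6 each; log2 -0.52, SE 0.13, adjusted p = 0.0248 in edgeR). Of 17 mitochondrial chaperones and proteases 1 rose and 0 fell. This was Trap1, the mitochondrial HSP90, at 137 ± 15.7 against 93.9 ± 19.3 CPM (SD, n = 6 each; log2 0.55, SE 0.14, adjusted p = 0.0250 in edgeR), opposite in direction to Hspe1.

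Of 5 tested small heat-shock protein genes 1 rose and 1 fell. Cryaa, the alpha-A crystallin gene best known from the lens, was at 157 to 255 CPM in biotin-positive and 31.2 to 77.6 CPM in biotin-negative libraries, with no overlap. Its level in null libraries was 38.5 and 64.2 CPM. It was higher in biotin-positive DCs than in biotin-negative (log2 1.95, SE 0.24, adjusted p = 6.64e-05 in edgeR) and null DCs (log2 1.89, SE 0.37, adjusted p = 0.0105). Hspb6 was at 17.4 ± 3.81 against 30.1 ± 8.71 CPM (SD, n = 6 each; log2 -0.79, SE 0.23, adjusted p = 0.0402 in edgeR).

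In 4 further lists 0 genes were called between the biotin groups by edgeR, with 0, 0, 2 and 1 at an unadjusted p under 0.05 in the order given here, where 21.1% of all tested genes were. Of 5 heat-shock factors and their inhibitors, Hsbp1 had the smallest p, at 74.3 ± 6.57 against 65.0 ± 4.25 CPM (SD, n = 6 each). Of 8 other HSP70 and HSP110 genes it was Hspa2 (log2 -0.69, SE 0.52). Of 12 exchange factors and regulators it was Bag3, a target of HSF1, at 69.7 ± 17.7 against 44.9 ± 13.2 CPM (SD, n = 6 each; log2 0.63, SE 0.21, adjusted p = 0.0773 in edgeR). Of 13 chaperonin and prefoldin genes it was Tcp1 (log2 -0.21, SE 0.09).

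**Figure D5:**
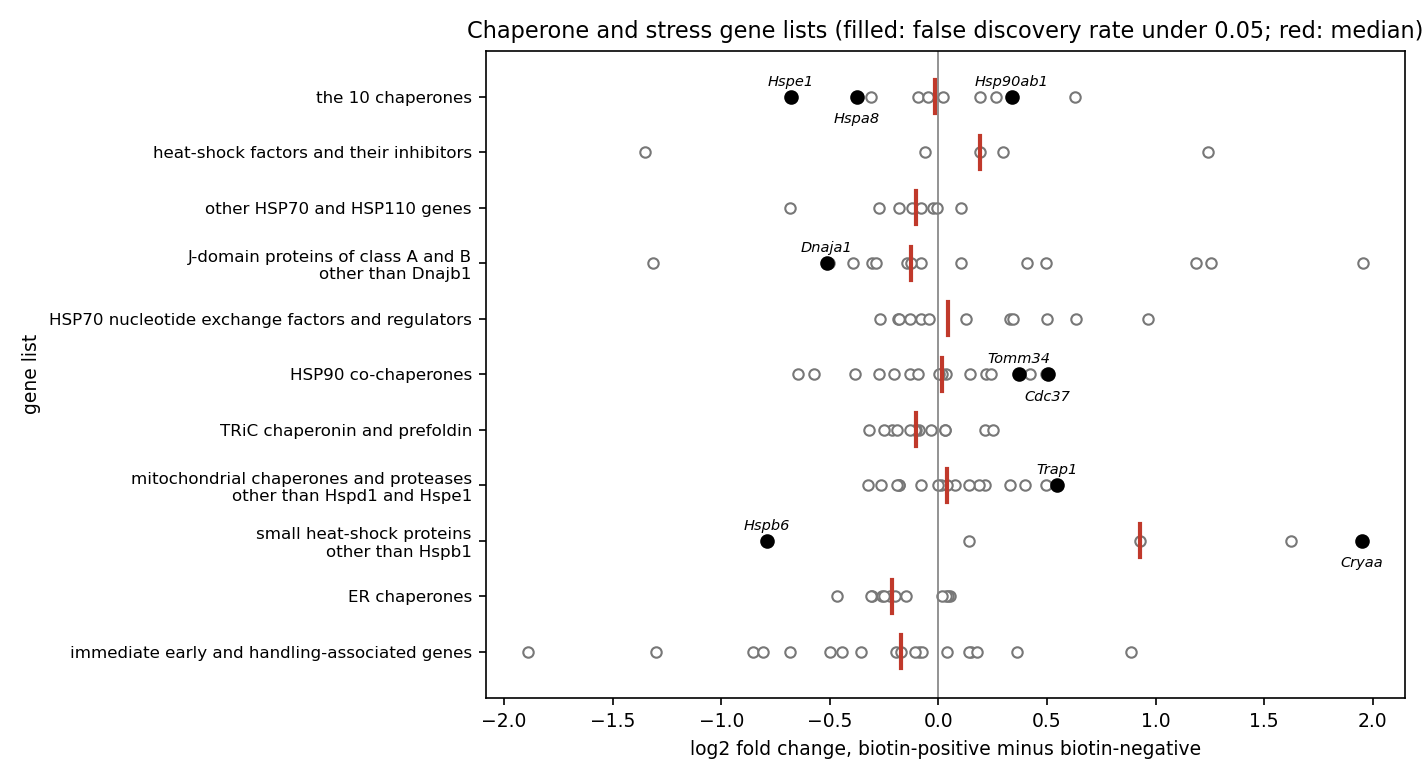
Points are log2 fold changes of single genes between biotin-positive and biotin-negative DCs for the 10 chaperones and 10 lists, filled and named where the edgeR false discovery rate is under 0.05, and red bars are list medians. Called genes lie on both sides of 0, with Cryaa farthest to the right at log2 1.95.

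Against null DCs, the 8 lists held 2 genes called higher in biotin-positive DCs (Cryaa and Fkbp5) and 1 in biotin-negative DCs (Fkbp5), with 0 lower in either. That is 2.25% and 1.12% of the 89 genes, beside 2.27% and 0.317% of all tested genes, so the first is at the background. Fkbp5, a co-chaperone of steroid receptors whose gene glucocorticoids induce, was at 5.42 and 11.3 CPM in null libraries. It ran from 21.1 to 35.6 CPM in biotin-positive and from 28.5 to 40.7 CPM in biotin-negative libraries, so that every biotin-sorted library was above both null ones. Differences were log2 1.78 (SE 0.32, adjusted p = 0.00544 in edgeR) and 2.06 (SE 0.32, adjusted p = 0.00635). The other 17 of the 18 HSP90 co-chaperones were not called against null DCs.

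Other stress programmes were read for comparison. Of 12 chaperones of the endoplasmic reticulum 0 were called by edgeR in any comparison, with 1, 3 and 1 at an unadjusted p under 0.05. Dnajb11 had the smallest p between the biotin groups (log2 -0.31, SE 0.12), and the list's medians were -0.21, -0.10 and -0.05 in the comparisons by label, of biotin-positive and of biotin-negative with null DCs. Of 19 immediate early and handling-associated genes 0 were called either, with 0, 1 and 4 at an unadjusted p under 0.05 in edgeR, beside 21.1%, 13.8% and 9.22% of all tested genes. Ier2 was at 18.9 ± 5.09 against 25.7 ± 6.28 CPM by label (SD, n = 6 each). Among genes of oxidative and proteotoxic stress, Herpud1, which serves degradation at the endoplasmic reticulum, was higher by label (log2 0.36, adjusted p = 0.0415 in edgeR) and over null DCs (log2 0.74, adjusted p = 0.0150). The metallothionein gene Mt1 was lower by label (log2 -0.71, SE 0.20, adjusted p = 0.0388 in edgeR).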

How the data were processed

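Bowtie2 2.1.0, RSEM 1.2.8, DESeq2 1.16.0 and build mm10 are named in the submitters' processing notes, without roles. The deposited files hold RSEM expected counts, given as whole numbers, and a normalized signal that the authors made for fewer genes; each library's signal was a constant multiple of its counts (relative deviation at most 5.11e-15). Groups came from sample titles. The members and lists were chosen with earlier results of these data known. Expected counts were rounded and filtered in edgeR 4.0.16 (R 4.3.3; filterByExpr, min.count 10), TMM-scaled and fitted in 1 quasi-likelihood model of all 14 libraries with robust=TRUE. All 3 contrasts were two-sided, with Benjamini-Hochberg adjusted p over 14217 genes. Standard errors are the log2 difference over the square root of F. Named were all 10 members, up to 3 called genes with the smallest p per list and comparison, or the gene with the smallest p by label, Cd40, and the 5 genes most correlated with the members. Lengths are of the longest coding transcript in GENCODE M21. The fit was tested on simulated counts with 200 changed genes. Alternatives used other scaling, filters, limma 3.58.1, DESeq2 1.42.0, covariates, a replicate block, and left out libraries. Counts lack molecular identifiers, so depth limits precision by counting error only in part. One called gene of the stress list, and that list's counts, are not reported here.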

Additional observations from a re-analysis of the deposited data

Results flagged for a closer look

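Within groups of 6 libraries, 2 of 20 sets of member values had 1 library whose gap to its nearest neighbour, over the range of the group, was above Dixon's 95% critical value for 6 samples. Chance flags about 1 in 20 such groups. For Hspa1a this was biotin-positive replicate 4, at 672 CPM, with a gap of 0.652 of the range. Without it, Hspa1a was at log2 -0.21 between biotin-positive and biotin-negative DCs (adjusted p = 0.880 in edgeR) and at log2 3.82 over Cd40-null DCs (adjusted p = 0.0340). For Hspe1 it was biotin-positive replicate 5, at 42.1 CPM, with a gap of 0.641 of the range. Without it, Hspe1 was at log2 -0.80 between biotin-positive and biotin-negative DCs (adjusted p = 0.0119 in edgeR).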

How the results depend on the processing

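Genes called were 1102 between biotin-positive and biotin-negative, 323 between biotin-positive and null and 45 between biotin-negative and null DCs. DESeq2 called 1758, 886 and 359, with 4 and 3 members against null DCs. Limma voom called 603 between biotin-positive and null DCs. Limma on the deposited signal called 83 between biotin-negative and null DCs, with 1 member. A fit of only those 2 groups called 29. With detected genes as a covariate 11 genes and 0 members were called by label, and 6 genes between biotin-negative and null DCs. With monocyte and macrophage markers as a covariate 109 genes and 0 members were called by label, and 158 genes between biotin-positive and null DCs. With the immediate early list as a covariate 450 genes and 2 members were called by label, with Hspe1 lost (log2 -0.50, adjusted p = 0.249 in edgeR), and 180 with 1 member between biotin-positive and null DCs. The cause of these shifts was not tested.

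Over all genes, same-numbered libraries did not deviate together (correlations -0.03 to 0.04). The labels do not say what the number marks, and such correlations cannot exclude a shared mouse or day. With the replicate block 891, 129 and 19 genes were called in the 3 comparisons, and Hspe1 was not called by label (log2 -0.70, adjusted p = 0.0769 in edgeR).

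Leaving out 1 library gave 839 to 1106, 78 to 346 and 12 to 48 genes, and 2 to 3, 0 to 3 and 0 to 1 members. Against null DCs, 78 and 95 genes were called for biotin-positive, and 21 and 12 for biotin-negative, without null replicate 1 and 2.

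Differences that changed sign were called in neither fit. By label, Hsph1 was at log2 -0.22 with voom, -0.20 on the deposited signal, -0.20 with the replicate block and -0.34 with detected genes. With detected genes Hspa1a was at -0.68 and Hspb1 at -0.040. With macrophage markers Hsp90aa1 was at 0.088 and Hspd1 at 0.0047, and with the immediate early list Hspd1 was at 0.075. Between biotin-positive and null DCs, Hspb1 was at -0.088 with voom, -0.10 on the deposited signal and -0.39 with the replicate block, and Hsp90ab1 at 0.019 with macrophage markers and 0.018 with the immediate early list. Between biotin-negative and null DCs, Hspe1 was at 0.0011 on the deposited signal and 0.12 with detected genes, and Hspb1 at 0.26 with detected genes.

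Leaving out 1 library also turned some uncalled differences. By label, log2 ranged from -0.21 to 0.74 for Hspa1a, -0.065 to 0.59 for Hspa1b, -0.19 to 0.22 for Hsph1 and -0.11 to 0.094 for Hspd1. Between biotin-positive and null DCs it ranged from -0.14 to 0.083 for Hsp90ab1, -1.56 to 0.40 for Hspd1 and -0.29 to 1.06 for Hspb1. Between biotin-negative and null DCs it ranged from -0.37 to 0.39 for Hspe1, -1.52 to 0.44 for Hspd1 and -0.92 to 0.43 for Hspb1. Hspd1 was called lower without null replicate 2 in both.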

Other observations

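Over the 14 libraries, the mean standardized log2 CPM of the 10 chaperones correlated most closely, among 9373 other genes, with Eif5a (r = 0.81), Spcs2 (0.81), Prmt5 (0.79), Atp5b (0.79) and Lipa (0.78). These are descriptions without a test, and the points share groups and library depth. The chaperones did not vary as 1 block: over their 45 pairs the median correlation was -0.07, with 7 pairs above 0.5 and 23 below 0. These correlations also carry the differences between groups. With group means subtracted the median was 0.11, with 7 pairs above 0.5, and Hsp90ab1 with Hspe1 went from -0.25 to 0.79. Hspa1a and Hspa1b, which share most of their 38-base windows, were at r = 0.82, and at 0.65 with group means subtracted.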
